A study of Mus musculus with 12 samples.

Results

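The cytosolic ribosome is built from ribosomal RNA and about one copy each of a fixed set of proteins, and the genes for these proteins are the subject here. They were taken from the deposited table by symbol: names of the form Rps or Rpl with a number, with or without a final a, x or l, the acidic stalk proteins Rplp0, Rplp1 and Rplp2, and Rpsa, leaving out the S6 kinase genes. This gave 83 of the 13942 genes in the table, 34 of the small and 49 of the large subunit. Of the 79 ribosomal protein genes of the standard mouse set, 77 were among them. The others bear other names, and Fau, one of them, is given separately. The 6 genes outside the standard set were the processed pseudogenes Rps3a3 and Rps4l and the paralogs Rpl7l1, Rpl22l1, Rpl39l and Rps27l.

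RNA was sequenced from the retinal pigment epithelium (RPE), the pigmented layer behind the retina, of C57BL/6J mice. Libraries of mice with a conditional Sox9 deletion (genotype label Sox9.cKO, titles kd, called cKO here) and of wild-type mice (WT) were made after birth, at postnatal day 5 (P5), and before birth, at E15.5. The 4 groups, P5 cKO, P5 WT, E15.5 cKO and E15.5 WT, had 3 libraries each. The sources used here do not name the Cre line, the deleted exons of Sox9 or the way RPE was separated. The labels do not say whether replicates were separate animals, so p-values measure only the spread between these libraries, which may be technical.

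Ribosomal proteins are made in the cytoplasm, carried to the nucleolus and joined there to ribosomal RNA, a task that takes a large set of biogenesis factors and RNA polymerase I. Most of their mRNAs begin with a 5′ terminal oligopyrimidine (TOP) tract, through which mTORC1 and the RNA-binding protein LARP1 set their translation, and MYC is a known activator of ribosome production. Ribosome production is high in dividing and growing cells. The RPE leaves the cell cycle in late gestation and the first days after birth while it matures.

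Values are gene counts that the authors quantile-normalised and floored at 50, so that all 12 libraries have one distribution with a median of 367.4. The sequencing depth is therefore unknown, and a change is a change in rank against the other genes of a library. In bulk RNA, fewer cells of a type and less RNA per cell cannot be told apart. Sox9 was not lower in the libraries labelled cKO. At P5 it was higher in cKO, by 1.07 ± 0.17 on the log2 scale (SE, adjusted p = 0.0316, limma). It had 2135.7, 2383.8 and 2928 in P5 cKO against 963.7, 1499.5 and 1111.4 in P5 WT, and 1034, 990 and 1006.2 in E15.5 cKO against 1156.2, 1060.3 and 931.6 in E15.5 WT. Since the deleted part of the gene is not given, a count over the whole gene does not check the genotype labels. Of the defining RPE markers, Rpe65, the retinoid isomerase, lay at the floor in all libraries of P5 cKO, E15.5 cKO and E15.5 WT, and had 563.7, 479.2 and 177.8 in P5 WT, while the pigment gene Pmel was at 12599 or higher in all 12 libraries. The mean log2 value of photoreceptor markers was 7.64, 10.97 and 9.95 in P5 cKO, 7.61, 8.84 and 11.77 in P5 WT, 6.12 to 6.13 in E15.5 cKO and 6.13 to 6.19 in E15.5 WT. Photoreceptor signal was thus uneven among the P5 libraries. Skeletal muscle markers averaged 11.05 to 11.78 in E15.5 cKO and 11.01 to 12.01 in E15.5 WT. RPE markers averaged 8.55 to 8.87 and 9.14 to 9.47 there. At P5, muscle markers averaged 10.46 to 11.81 in cKO and 9.37 to 11.63 in WT, and endothelial markers 10.45 to 11.39 and 10.77 to 11.76. RPE markers averaged 11.02 to 11.72 and 11.28 to 12.51 at P5. Means of different marker lists do not give shares of tissue.

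The genes are spread over 19 chromosomes, 4 of them on the X, and 81 are annotated as protein-coding. Small nucleolar RNAs lie inside 30 of them, 58 in all, with up to 5 in Rpl4. For the promoters, windows from 250 bases before to 50 bases after the RefSeq start (GRCm38.p6) were at hand for 61 of the 83 genes, 72 windows in all. Each motif was searched on both strands, as a match of letters only. CTTTCC, a piece of a pyrimidine tract, was in 36 of the 72 ribosomal protein windows, against 26.4% of all 13111 windows of the same length. CCGGAAG, the core bound by ETS factors, was in 37.5% against 15.9%, and AAGATGG, the core of the YY1 site, in 16.7% against 6.67%. TATAAA was in 9.72% against 7.28%, and GGGCGG, the GC box, in 61.1% against 62.2%. None of the 5 motifs contains another, though matches of different motifs may share bases.

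The 60 bases before the start and the first 20 bases of the transcript are shown for 4 genes that fell with age and hold CTTTCC there, and for Rps27l, the gene with the smallest difference between ages. They were chosen with the values known. The start is at position 61 of each, and capitals mark CTTTCC and CCGGAAG. They lie at chr7:45128726-45128805 on the minus strand (Rpl13a), chr9:64173327-64173406 on the plus strand (Rpl4), chr7:45718011-45718090 on the plus strand (Rpl18), chr17:27635225-27635304 on the minus strand (Rps10) and chr9:66946026-66946105 on the plus strand (Rps27l).
Rpl13a: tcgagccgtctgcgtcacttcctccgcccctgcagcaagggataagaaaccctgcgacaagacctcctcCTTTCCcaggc
Rpl4: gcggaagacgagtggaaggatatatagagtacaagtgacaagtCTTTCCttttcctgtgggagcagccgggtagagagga
Rpl18: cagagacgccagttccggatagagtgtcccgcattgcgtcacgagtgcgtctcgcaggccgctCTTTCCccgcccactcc
Rps10: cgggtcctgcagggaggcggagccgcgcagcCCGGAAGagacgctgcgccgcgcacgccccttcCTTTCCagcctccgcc
Rps27l: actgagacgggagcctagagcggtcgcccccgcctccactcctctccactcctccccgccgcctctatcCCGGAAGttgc
In Rpl13a, Rpl18 and Rps10 the capitals CTTTCC fall after the annotated start, in Rpl4 before it, and Rps27l has no CTTTCC in the stretch shown. Other genes differ from this choice: Rps26 and Rpl5 fell in both genotypes and have no CTTTCC in this stretch. Rpl28 and Rps27 hold it and were called lower in WT but not in cKO. The motif was not tested against the change with age.

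Ribosomal protein genes were among the most abundant in every library. Their sum made up 2.34%, 2.60% and 2.41% of the table's total in P5 cKO and 2.31%, 2.71% and 2.16% in P5 WT, against 3.71%, 3.83% and 3.37% in E15.5 cKO and 3.34%, 3.79% and 4.13% in E15.5 WT. Every P5 library was below every E15.5 library, and the genotypes overlapped at both ages. The median member stood at percentile 95.3 to 97.0 of all genes in the P5 libraries and 97.7 to 98.3 in the E15.5 libraries. Per kb of transcript (mean over all 12 libraries), Rplp1, a protein of the acidic stalk, stood highest at 17970 and Rps15 followed at 17918. The lowest per kb were Rpl39l at 73.1, Rpl24 at 240.3, Rpl7l1 at 490.2, Rpl22l1 at 495.9 and Rpl13a at 518.3. The median over the 83 genes was 4654 per kb. Rpl39l lay at the floor in all 6 P5 libraries and in 1 of the E15.5 cKO libraries, so that its fold changes are bounds.

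**Figure D1:**
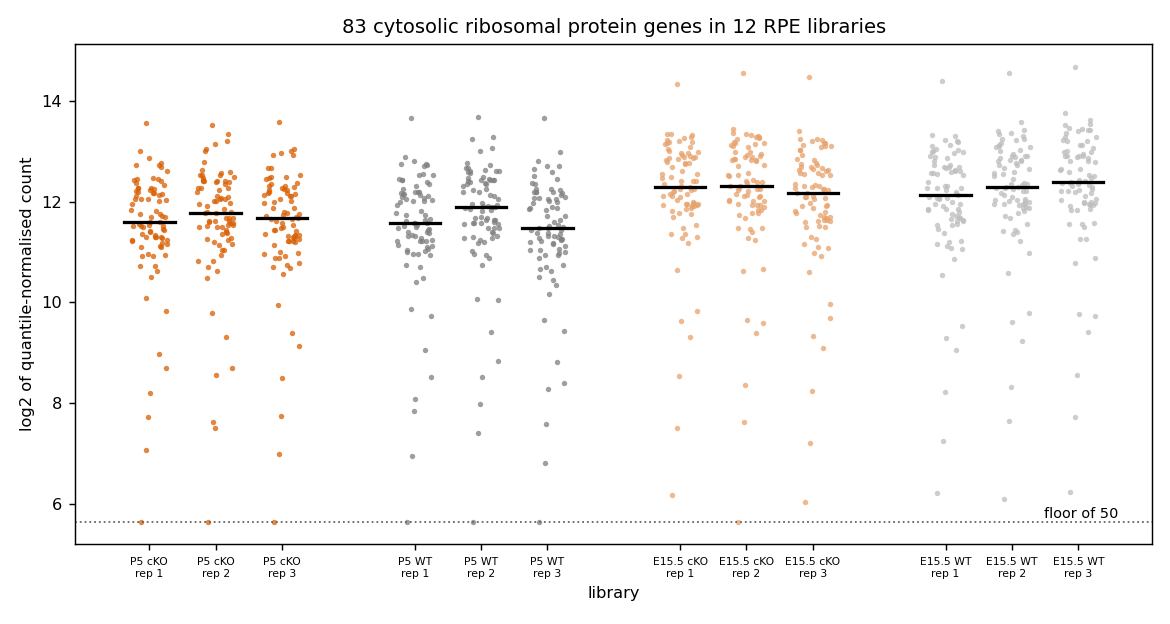
Each point is 1 of the 83 genes in 1 library, as log2 of the quantile-normalised count, and the black line is the median of the genes. The medians lie at 11.60, 11.79 and 11.68 in P5 cKO and 11.58, 11.89 and 11.48 in P5 WT, all below the 12.13 to 12.40 of the E15.5 libraries.

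Most of the 83 genes fell between E15.5 and P5. In cKO, 62 of the 83 genes were lower at P5 than at E15.5 and 0 were higher (limma, adjusted p under 0.05 over 13523 genes tested), beside 26.1% of all genes called lower and 17.6% called higher. In WT, 75 were lower and 0 higher, beside 23.2% of all genes called lower and 15% called higher. The median log2 fold change of the 83 was -0.57 in cKO, against -0.08 over all genes tested, and -0.63 in WT, against -0.07. All 83 fitted changes were negative in both genotypes. All P5 libraries lay below all E15.5 libraries for 68 genes in cKO and 75 in WT, where 34.1% and 29.4% of all genes tested did so.

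The largest called fall was that of Rpl13a, a large-subunit protein that is also part of the GAIT complex of translation control. Rpl13a (chr7:45125558-45128761) had 295.8, 379.3 and 363.1 in P5 cKO, against 792.5, 808.9 and 643.9 in E15.5 cKO. It had 272.3, 366.5 and 309.7 in P5 WT, against 631.8, 779.8 and 867.8 in E15.5 WT. The ages did not overlap in either genotype. The log2 fold change was -1.11 ± 0.17 in cKO (SE, adjusted p = 0.000493, limma) and -1.26 ± 0.17 in WT (adjusted p = 0.000282, limma), a level 2.16 and 2.40 times lower at P5.

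Among the small-subunit genes, Rps26, a protein at the mRNA exit channel, fell by 0.93 in cKO and 1.11 in WT on the log2 scale. Its P5 values were 4771 to 5881 in cKO and 4317 to 5446 in WT, and its E15.5 values 9545 to 10557 in cKO and 8880 to 11751 in WT, with no overlap of ages. Rps19, the gene most often mutated in Diamond-Blackfan anaemia, fell by 0.72 in cKO and 0.93 in WT. Rps27a, which is made as a fusion with ubiquitin, fell by 0.92 and 0.83, and Rps4x, the X-linked S4 protein, by 0.93 and 0.71. Rps6, the target of the S6 kinases, fell by 0.61 and 0.68, Rpsa, also known as the laminin receptor, by 0.71 and 0.70, Rps7 by 0.66 and 0.60 and Rps20 by 0.54 and 0.61, cKO before WT in each.

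Of the large-subunit genes, Rpl5 binds 5S ribosomal RNA and, with Rpl11, inhibits MDM2 when ribosome assembly fails. Rpl5 had 2524.4, 1810.2 and 1898.3 in P5 cKO against 4186.4, 4429.1 and 4027.3 in E15.5 cKO, a log2 fold change of -1.03 ± 0.15 (SE, adjusted p = 0.000333, limma). In WT it had 2589.5, 2310.3 and 1979.5 at P5 against 3875.2, 4131.3 and 4704.3 at E15.5, a change of -0.89 ± 0.15 (adjusted p = 0.00096, limma). No P5 library reached an E15.5 library. Its partner Rpl11 changed less, by -0.43 in cKO and -0.51 in WT. The cKO call of Rpl11 was lost without E15.5 cKO replicate 1 or 2, E15.5 WT replicate 2 or P5 cKO replicate 1 or 3 (adjusted p up to 0.126, limma). Its WT call was lost without E15.5 WT replicate 2 or 3 or P5 WT replicate 1 (adjusted p up to 0.0888).

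Rpl4, which lines the peptide exit tunnel, fell in both genotypes. It had 12155, 11848 and 12254 in P5 cKO against 20743, 24110 and 22676 in E15.5 cKO, and 13011, 13135 and 13011 in P5 WT against 21548, 24110 and 26292 in E15.5 WT. The log2 fold changes were -0.89 ± 0.13 in cKO and -0.87 ± 0.13 in WT (SE, adjusted p = 0.000464 and 0.000636, limma). The levels of the ages stood well apart in both genotypes. Rpl3, of the peptidyl transferase centre, fell by 0.82 in cKO and 0.72 in WT, Rpl10, which completes the large subunit, by 0.67 and 0.59, and Rpl27a by 0.57 and 0.63.

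The acidic stalk, where elongation factors dock, was uneven. Its base Rplp0 fell by 0.51 in cKO and 0.82 in WT on the log2 scale, and Rplp2 by 0.67 and 0.68. The cKO call of Rplp0 was lost without P5 cKO replicate 2 or E15.5 cKO replicate 2 or 3, with adjusted p up to 0.103 (limma). Rplp1, the partner of Rplp2 in the stalk dimer, was not called, at -0.25 ± 0.15 in cKO and -0.27 ± 0.15 in WT (SE, adjusted p = 0.205 and 0.177, limma). Rplp1 had 8237.3, 8433.8 and 7779.2 in P5 cKO against 10356, 9755 and 8932 in E15.5 cKO, and 7619.4, 9754.8 and 7180.2 in P5 WT against 8484, 9755 and 11320 in E15.5 WT. The ages did not overlap in cKO and overlapped in WT. The difference between Rplp1 and Rplp2 was not itself tested.

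Across genotypes, 61 genes were called lower in both, 14 in WT alone, 1 in cKO alone (Rps3a1) and 7 in neither. The 7 were Rpl24, Rpl36, Rpl39, Rplp1, Rps14, Rps27l and Rps29. Rpl24, whose loss in mice gives the Belly spot and tail phenotype, had 134.2, 196.3 and 127.3 in P5 cKO, 124.1, 169.1 and 112.7 in P5 WT, 181.4, 196.3 and 148.4 in E15.5 cKO and 151.1, 200.7 and 210.9 in E15.5 WT. Its log2 change was -0.22 ± 0.23 in cKO and -0.48 ± 0.23 in WT (SE), with overlapping ages. Rpl38, known from the Tail short mouse for its part in Hox mRNA translation, was -0.32 ± 0.17 in cKO (adjusted p = 0.152, limma) and fell by 0.55 in WT (adjusted p = 0.0278, limma). The ages overlapped for Rpl38 in both genotypes, and its WT call was lost without P5 WT replicate 1 or 3 or E15.5 WT replicate 2 or 3 (adjusted p up to 0.1001). A call in one genotype alone does not show a difference between genotypes, and the test of that difference, the interaction, is given below.

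**Figure D2:**
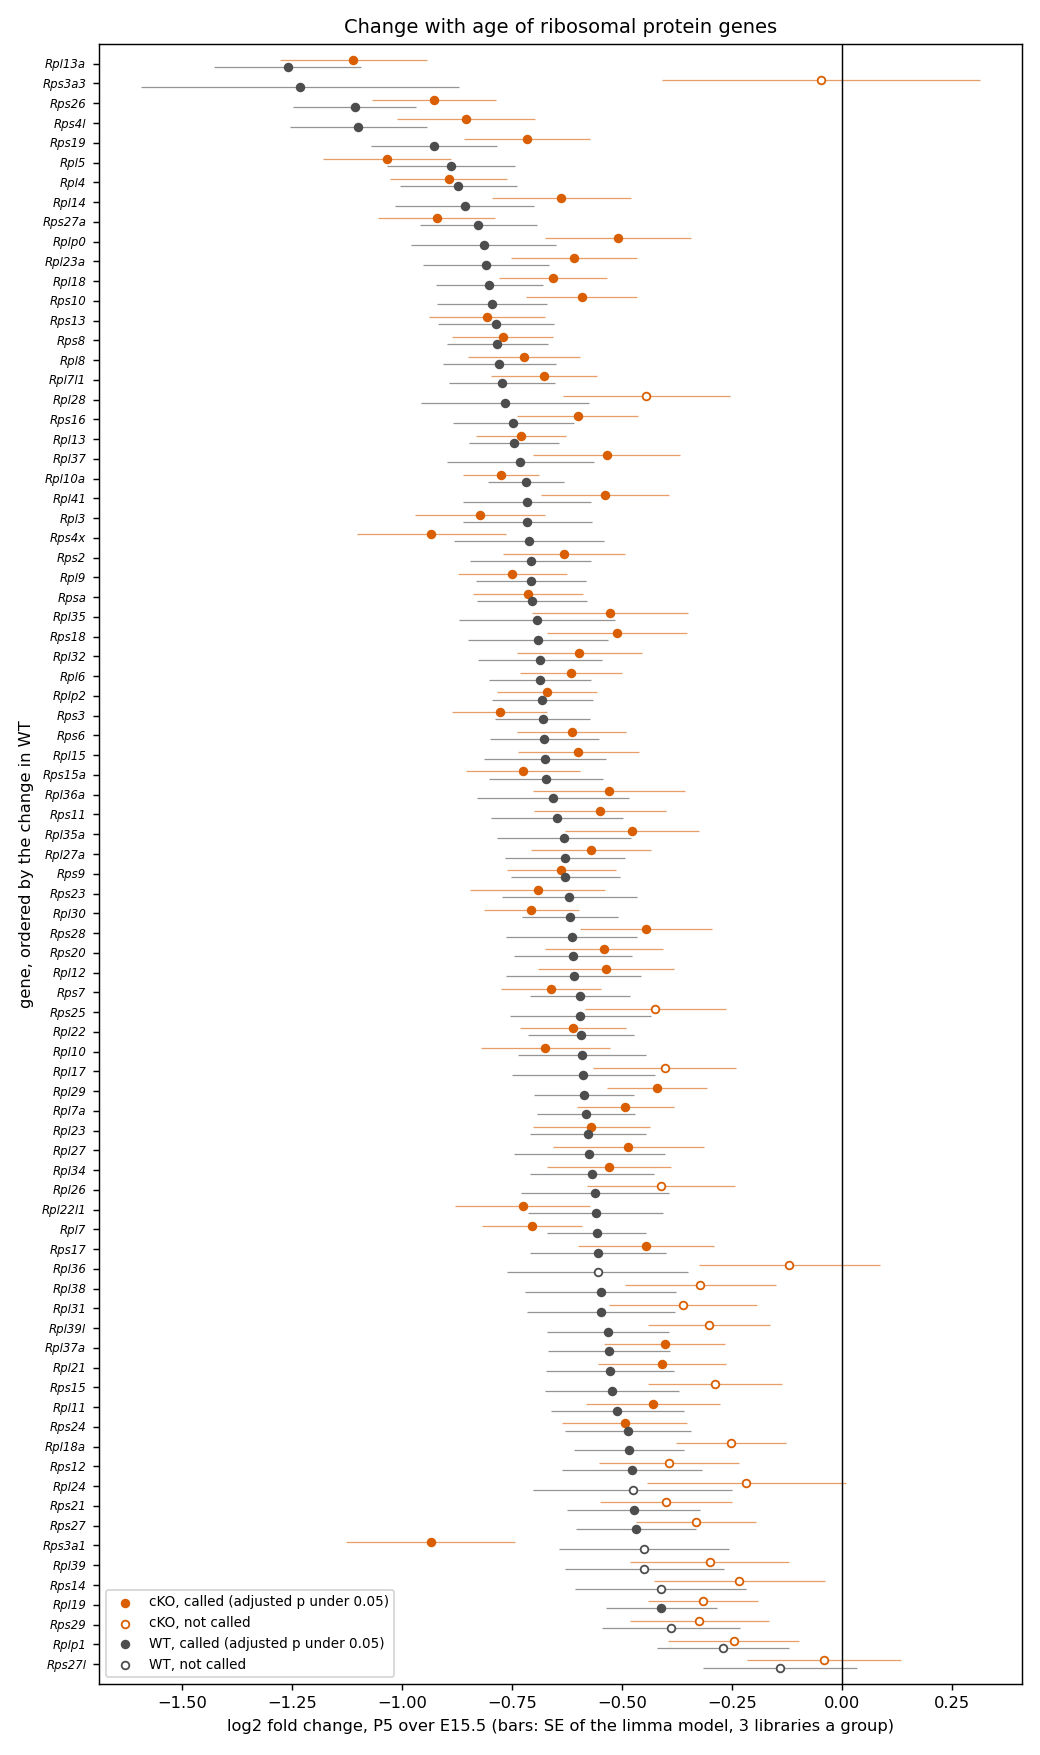
Log2 fold change of P5 over E15.5 for the genes in cKO (orange) and WT (grey), 1 of the 83 not shown, with the SE of the limma model. Filled points are called, and all points lie left of 0, between -1.11 and -0.04 in cKO and between -1.26 and -0.14 in WT.

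The order of the changes was partly shared by the genotypes, which have no libraries in common. Across the 83 genes, the changes in cKO and WT had a Pearson correlation of 0.60 and a Spearman correlation of 0.69, and a Pearson correlation of 0.81 over the 81 genes other than Rps3a1 and Rps3a3. Genes are not independent replicates, and these values are descriptions. By subunit, the median was -0.61 for small-subunit genes and -0.54 for large-subunit genes in cKO, and -0.66 and -0.62 in WT. Genes with a small nucleolar RNA inside had medians of -0.61 in cKO and -0.68 in WT, and the others -0.51 in cKO and -0.61 in WT. Longer transcripts had lower medians: those over the median length of 878 bases had medians of -0.63 in cKO and -0.68 in WT, and the shorter -0.46 in cKO and -0.58 in WT. The Spearman correlation of the change with transcript length was -0.40 in cKO and -0.33 in WT. Within groups, the deviation of the members from their mean also followed length in single libraries, with Spearman correlations between -0.42 and 0.33. Over 13512 genes of the table the correlations were between -0.34 and 0.36, so this was not particular to the members. In both cases P5 WT replicate 2 was lowest and E15.5 WT replicate 1 highest. The part of length in the result was not tested.

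Rps3a1 and Rps3a3 were the exceptions to the shared pattern, and their values cannot be taken singly. Rps3a3 (chr13:108670603-108671397, plus strand, GRCm38) is annotated as a processed pseudogene, an intronless copy of Rps3a1 (chr3:86137940-86142702, minus strand). Aligned along its whole length of 795 bases, it differs from the Rps3a1 transcript at 9, is 98.9% identical and shares a run of 215 identical bases, so that the authors' counting could split reads between them. A stretch of 90 bases with 2 of the differences, in capitals, shows how little tells them apart. It spans positions 171 to 260 of the Rps3a3 transcript and 304 to 393 of the Rps3a1 transcript of GENCODE M21.
Rps3a3: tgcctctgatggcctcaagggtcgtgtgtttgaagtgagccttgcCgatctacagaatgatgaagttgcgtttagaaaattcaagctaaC
Rps3a1: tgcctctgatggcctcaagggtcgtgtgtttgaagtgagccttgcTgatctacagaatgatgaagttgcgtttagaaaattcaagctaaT

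The pseudogene took 20.3%, 51.9% and 42.3% of the summed counts of the pair in P5 cKO and 19.1%, 21.6% and 18.1% in P5 WT. In E15.5 cKO its share was 35.7%, 22.5% and 16.4%, and in E15.5 WT 34.4%, 28.8% and 25.8%. The share varied more than 2-fold within each cKO group. Alone, Rps3a3 was called lower at P5 in WT, at -1.23 ± 0.36 (SE, adjusted p = 0.0212, limma), and not in cKO, at -0.05 ± 0.36 (adjusted p = 0.927). The WT call was lost without any one of the E15.5 WT libraries (adjusted p 0.0523 to 0.0621, limma). Rps3a1 showed the reverse, at -0.94 ± 0.19 in cKO (adjusted p = 0.00303, limma) and -0.45 ± 0.19 in WT (adjusted p = 0.0884), where it passed without P5 cKO replicate 1 (adjusted p = 0.0263, limma). The sum of the pair was 4508.8, 4412.7 and 4138.7 in P5 cKO, 4458, 4930.5 and 3803.5 in P5 WT, 7040.9, 7157.2 and 6069.7 in E15.5 cKO and 6188.5, 7011.5 and 7354.2 in E15.5 WT. Fitted as one gene, an alternative chosen after seeing the data, the pair fell by 0.63 in cKO and 0.64 in WT on the log2 scale (adjusted p = 0.00229 and 0.00239, limma). That is close to the median of the set in WT.

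**Figure D3:**
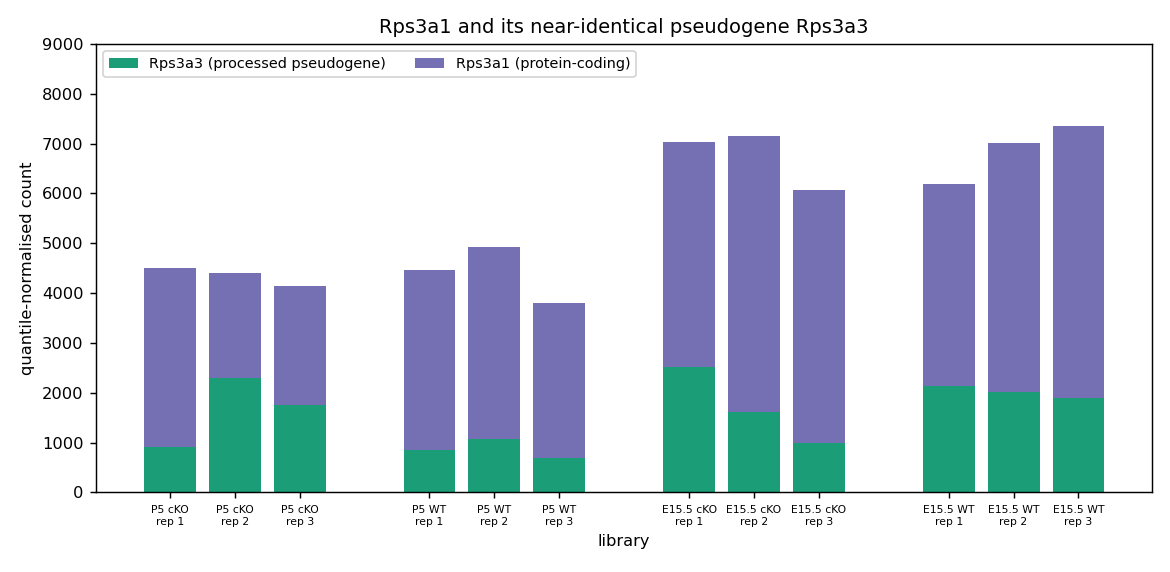
Stacked quantile-normalised counts of Rps3a3 (green) and Rps3a1 (purple) in each library. The total lies between 3803.5 and 4930.5 at P5 and between 6069.7 and 7354.2 at E15.5, while the green part varies from 16.4% to 51.9% of it.

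The paralogs were compared with their parent genes as a ratio within a library, which is free of any scale factor of the library. Of 24 tests (6 pairs in 4 comparisons, with Rps3a3 and Rps3a1 added as a pair after seeing the data), none passed: the smallest p that 3 libraries against 3 can give is 0.1, and its adjusted value was 0.4. Rps27l, a p53-inducible paralog of Rps27, was the member with the smallest difference between ages. It had 501, 632.8 and 675.4 in P5 cKO, 530.2, 682.4 and 450.2 in P5 WT, 635.3, 668.8 and 547.9 in E15.5 cKO and 529.2, 603.7 and 683.7 in E15.5 WT, with full overlap of ages. As a share of Rps27 it was 12.7%, 12.8% and 15.03% in P5 cKO, against 11.1%, 11.5% and 10.4% in E15.5 cKO. In P5 WT the share was 13.45%, 13.44% and 11.97%, against 9.90%, 10.4% and 10.7% in E15.5 WT. The ages did not overlap in either genotype, and the log2 ratio was higher at P5 by 0.29 in cKO and 0.33 in WT (exact permutation test, two-sided, p = 0.1 each, adjusted p = 0.4).

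Rps4l, a transcribed processed pseudogene related to Rps4x, fell in both genotypes, by 0.85 in cKO and 1.10 in WT on the log2 scale. Its transcript is 78.3% identical to that of Rps4x where the pair aligns, far less than Rps3a3 and Rps3a1. Rpl22l1, which can stand in for Rpl22 in mouse cells, fell by 0.73 in cKO and 0.56 in WT, beside 0.61 and 0.59 for Rpl22. The WT call of Rpl22l1 was lost without E15.5 WT replicate 3 (adjusted p = 0.0690, limma). Rpl7l1 fell by 0.68 in cKO and 0.77 in WT, beside 0.70 and 0.56 for Rpl7. At P5, Rpl7l1 stood at 25.7%, 25.2% and 24.3% of Rpl7 in cKO against 21.98%, 22.4% and 18.8% in WT, a difference in log2 ratio of 0.26 with no overlap (exact permutation p = 0.1, adjusted p = 0.4). Fau, which encodes eS30, fell by 0.40 in cKO and 0.52 in WT.

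Other genes of ribosome production and translation were lower at P5 as well. Of 61 ribosome biogenesis factors tested, 48 fell and 1 rose in cKO (median -0.63), and 45 fell and 0 rose in WT (median -0.60). Npm1, the nucleolar chaperone nucleophosmin, had 4429.1, 4503.3 and 4131.3 in P5 cKO against 11848, 10706 and 9822 in E15.5 cKO, and 4118.1, 5005.8 and 4647.8 in P5 WT against 10313, 10929 and 12254 in E15.5 WT. The ages stood far apart, and it fell by 1.31 in cKO and 1.28 in WT on the log2 scale. Of 15 genes of the RNA polymerase I machinery, 8 fell in cKO and 9 in WT, and none rose. Polr1b, its second largest subunit, fell by 0.99 in cKO and 0.88 in WT. Of 24 other TOP mRNA genes, 20 fell in cKO (median -0.63) and 19 in WT (median -0.66), and none rose. The lists overlap: Npm1 is also among the biogenesis factors, and Eef1a1, Eef1g and Eef2 are also among the elongation factors below. Their counts are therefore not independent.

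Among 13 elongation and termination factors, 11 fell and 1 rose in each genotype. Eef1a1, the main factor that brings aminoacyl-tRNA to the ribosome, fell by 1.36 in cKO and 1.04 in WT on the log2 scale. The 1 that rose was Eef1a2, the isoform known from muscle and neurons, with 705.6, 928.9 and 520.3 in P5 cKO against 85.8, 56.2 and 50 in E15.5 cKO. It had 659.8, 286.8 and 519.6 in P5 WT and was at the floor throughout E15.5 WT, so its WT fold is a bound. Of 45 initiation factors, 27 fell and 1 rose in cKO and 24 fell in WT, with Eif2s1 at -0.87 and -0.84. Of 22 cytosolic aminoacyl-tRNA synthetases, 13 fell in cKO and 11 in WT, and Vars, the valine enzyme, fell by 0.99 and 1.06. Of all genes tested, 26.1% fell and 17.6% rose in cKO, and 23.2% fell and 15% rose in WT.

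Mitochondrial ribosomal proteins serve the separate ribosome of that organelle. Of 76 tested, 12 fell and 4 rose in cKO (median -0.04), and 17 fell and 0 rose in WT (median -0.18). These shares, 15.8% and 22.4%, stand beside 26.1% and 23.2% of all genes called lower, and the difference from the cytosolic genes was not tested. Mrps22 was the largest of them, at -0.97 in both genotypes. Among 35 regulators of the MYC, mTORC1 and TOP pathways, 11 fell and 4 rose in cKO, and 10 fell and 6 rose in WT. These shares, 31.4% and 11.4% in cKO, stand beside 26.1% and 17.6% of all genes. In WT, 28.6% and 17.1% stand beside 23.2% and 15%. Myc itself had 350.9, 118.4 and 120.8 in P5 cKO against 714.6, 854.5 and 670 in E15.5 cKO, and 208.8, 204.3 and 139.8 in P5 WT against 717.3, 785.5 and 745 in E15.5 WT. No P5 library reached an E15.5 library, and Myc fell by 2.11 in cKO and 2.04 in WT. Mxd4, a MAX partner that opposes MYC, rose by 0.78 in cKO and 0.85 in WT on the log2 scale. Its relatives went both ways in WT: Mxi1 rose, at 0.88, and Mxd3 fell, at -0.79 (adjusted p = 0.0150 and 0.0278, limma).

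**Figure D4:**
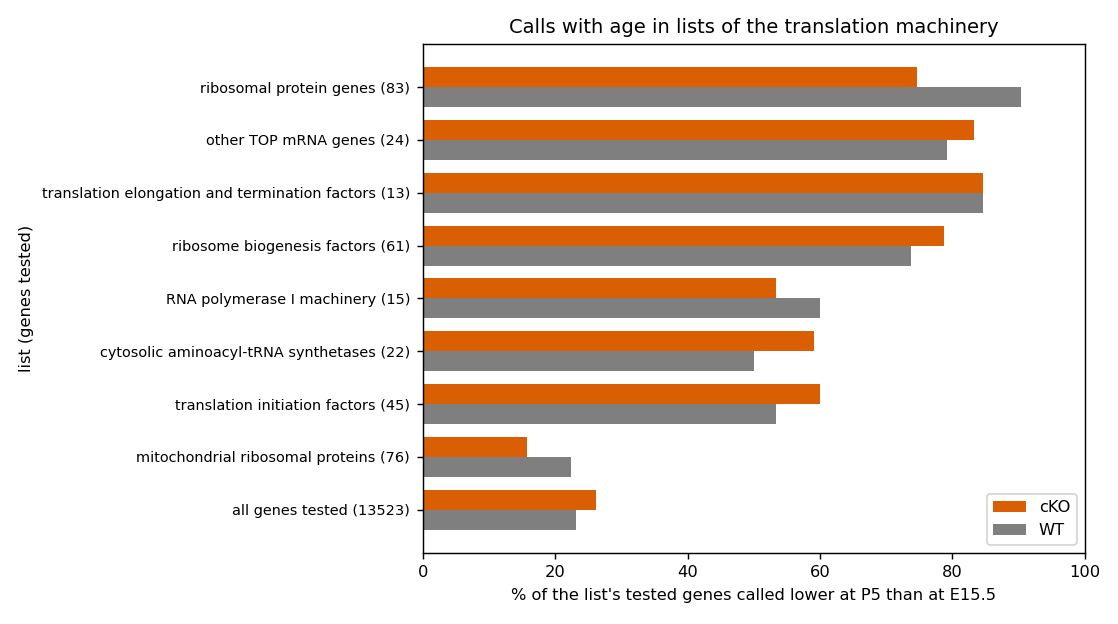
Percent of the tested genes of each list that were called lower at P5 than at E15.5, in cKO (orange) and WT (grey), with the number tested in brackets. Some genes are in several lists. Ribosomal protein genes stand at 74.7% in cKO and 90.4% in WT and mitochondrial ribosomal proteins at 15.8% and 22.4%, beside 26.1% and 23.2% of all genes tested.

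Markers of other cells and of proliferation moved with age too. All 24 proliferation genes fell in both genotypes, with a mean log2 level of 8.18 to 8.85 in P5 cKO and 7.995 to 8.73 in P5 WT, against 9.99 to 10.04 in E15.5 cKO and 9.95 to 10.08 in E15.5 WT. Of 15 RPE markers, 13 rose in each genotype, beside 17.6% of all genes in cKO and 15% in WT. Photoreceptor markers rose in 11 of 17 cases in each, and lens markers in 14 of 16 in cKO and 1 of 16 in WT. Erythroid markers fell in 8 of 10 cases in cKO and 7 of 10 in WT, and endothelial markers rose in 8 of 11 and 11 of 11. Of all genes, 26.1% were called lower in cKO and 23.2% in WT. Their part in the fall of ribosomal protein genes was not tested. Without the libraries of highest photoreceptor signal, P5 cKO replicate 2 and P5 WT replicate 3, an alternative chosen after seeing the data, 72 ribosomal protein genes were lower at P5 in cKO and 73 in WT. All genes called lower then numbered 4044 in cKO and 4038 in WT, against 3526 and 3143 with all libraries.

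Between genotypes, 0 of the 83 genes differed at either age. At P5, cKO against WT, 33 of 13523 genes were called (0.244%) and no ribosomal protein gene was among them (limma, adjusted p under 0.05), with 1 of the 83 at an unadjusted p under 0.05, beside 7.68% of all genes. At E15.5, 1 gene was called (0.00739%), with 0 of the 83 at an unadjusted p under 0.05, beside 0.362% of all genes. The median log2 fold change of the 83 was 0.06 at P5, against -0.02 over all genes, and turned to -0.080 without the libraries of highest photoreceptor signal. With 1 library left out it ran from -0.02 (without P5 WT replicate 3) to 0.18 (without P5 WT replicate 2). It was -0.03 at E15.5, against 0 over all genes, and ran from -0.12 (without E15.5 WT replicate 1) to 0.044 (without E15.5 WT replicate 3), with 0.034 without E15.5 cKO replicate 3. At P5, cKO and WT libraries overlapped for all but Rpl30 and Rpl4, which were lower in all cKO libraries. That is 2 of 83, near the 2.73% of all genes tested whose cKO libraries all lay below WT. At E15.5 only Rplp0 did not overlap, with 8714.5, 10055.3 and 9592 in cKO against 10197.3, 12253.7 and 10983.5 in WT, beside 2.99% of all genes tested with all cKO libraries below WT. These were named after their values were seen.

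The largest differences at P5 were those of the near-identical pair and of Rpl36 and Rpl28, both of the large subunit. Rps3a3 stood at 0.85 ± 0.36 and Rps3a1 at -0.42 ± 0.19 (SE, cKO over WT, adjusted p = 0.623 and 0.654, limma), and their sum at -0.01. Rpl36 had 2514.3, 4317.3 and 3525.7 in P5 cKO against 2375.3, 3168.3 and 2302.8 in P5 WT, a log2 fold change of 0.38 ± 0.21 (adjusted p = 0.719, limma). Rpl28 had 4949.2, 8286.4 and 6503.9 in P5 cKO against 4555.3, 6047.4 and 4874.2 in P5 WT, at 0.33 ± 0.19 (adjusted p = 0.738, limma). Groups overlapped for each of these genes. For Rps3a3, Rpl36 and Rpl28, replicate 2 was the highest library in both genotypes. Rps3a1 was highest in replicate 2 in WT, but in cKO it was highest in replicate 1 and lowest in replicate 2. Replicate 2 had the highest photoreceptor signal of the cKO libraries, while in WT that was replicate 3, with the lowest Rpl36. A fit with a term for photoreceptor signal called 203 of all genes at P5 and 0 of the 83. The part of that signal in the differences of these single genes was not tested further. At E15.5 the largest were Rps3a3 at -0.34 ± 0.36, Rplp0 at -0.24 ± 0.17, Rpl39l at -0.23 ± 0.14 and Rps14 at -0.15 ± 0.19 (SE, adjusted p = 1 for each, limma). The SE of a P5 difference ranged between 0.09 and 0.36 over the 83 genes, which limits the differences that 3 libraries a group can show.

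The interaction, the genotype difference at P5 minus that at E15.5, was called for 8 of 13523 genes (0.0592%) and for 0 of the 83, with 1 at an unadjusted p under 0.05, beside 2.65% of all genes. The median over the 83 was 0.09, against -0.02 over all genes. It ran from 0.014 (without P5 WT replicate 3) to 0.21 (without P5 WT replicate 2) with 1 library left out, and turned to -0.092 with library weights. Rps3a3 stood at 1.19 ± 0.51 and Rps3a1 at -0.49, both not called (adjusted p = 1, limma). The 14 genes called with age in WT alone and the 1 in cKO alone therefore passed no test of a difference between genotypes.

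**Figure D5:**
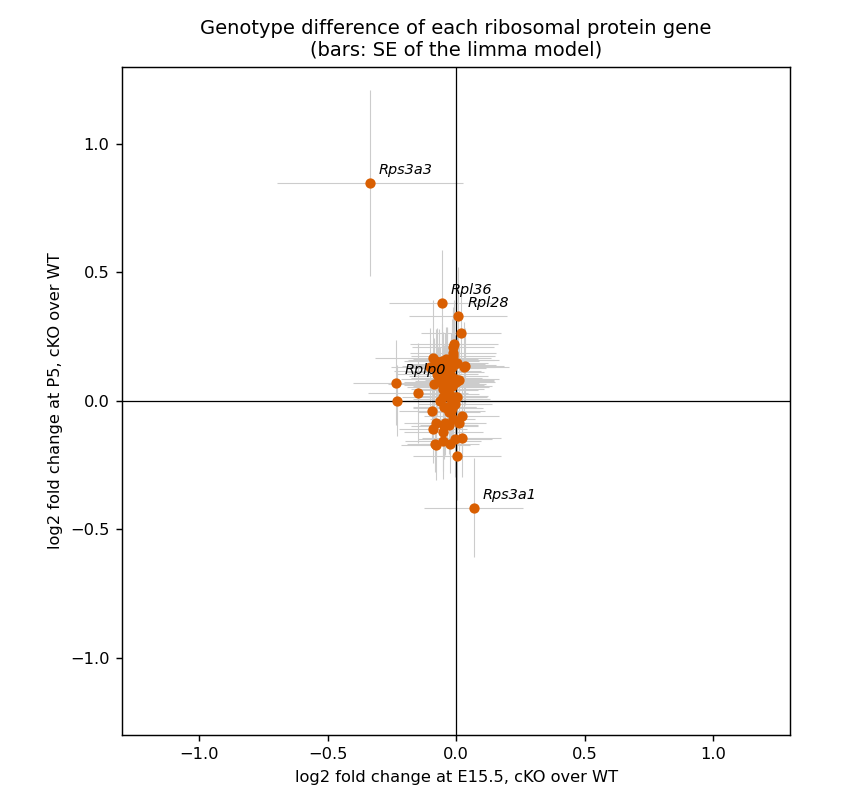
Log2 fold change of cKO over WT at P5 (vertical) and at E15.5 (horizontal) for each of the 83 genes, with the SE of the limma model. Rps3a3, at 0.85 and -0.34, lies farthest from 0 on both axes.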

How the data were processed

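TopHat2 2.0.10, HTSeq and the mm10 build are named in the submitters' processing notes. The deposited signal values, 1 per gene and library, are counts that the authors quantile-normalised and floored at 50. All 12 columns hold the same sorted values, with 1376 at the floor, so depth and counting error are unknown. The sources used here do not give the annotation release, the strand setting or the handling of multiply mapped reads. Of 13942 genes, the 13523 above the floor in at least 3 libraries were tested, all 83 ribosomal protein genes among them. A model with 1 mean per group was fitted to log2(value + 1) with limma 3.58.1 in R 4.3.3 (eBayes with trend, two-sided, Benjamini-Hochberg over all genes tested, calls at adjusted p under 0.05); it was tested on simulated data. Fold changes are on this scale, with the SE of the model. Positions are from GENCODE M21 (GRCm38), promoters from RefSeq (GRCm38.p6), and alignments were made with Biopython 1.88 in Python 3.11.15. Alternatives changed the pseudocount, low-value filter, variance model, library weights, scaling, replicate block, libraries fitted, photoreceptor and lens terms, and each library left out. Named members are the largest changes of each comparison, paralogs with their parents, and members of known separate roles. Of each translation list, genes were named from the up to 4 with the largest called changes. Printed sequences and the genes with non-overlapping genotypes were chosen after values were seen. Members and lists were chosen with earlier results of these data known. Some members and markers are not reported here.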

Additional observations from a re-analysis of the deposited data

How the results depend on the processing

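The count of ribosomal protein genes lower at P5 stayed within 1.5 times its value under each alternative run. It was 46 to 73 in cKO (62 as reported), both ends from library weights, and 60 to 77 in WT (75 as reported) over the settings other than single libraries left out. The count of all genes called lower moved as well. At the same ends it was 3159 and 4848 in cKO (3526 as reported), and 2287 and 3069 in WT (3143 as reported). In WT it reached 5407 with library weights. Leaving out 1 library gave 48 to 68 in cKO and 56 to 78 in WT, beside 2649 to 4215 and 2232 to 3737 of all genes called lower. Of the 35 named members, 24 were called in cKO, of which Rplp0 and Rpl11 lost the call without a library, and 28 in WT, of which Rps3a3, Rpl22l1, Rpl38, Rpl11 and Rps27 did. With limma's default library weights, whose estimate stopped before convergence, the median in WT was -0.45, that of cKO over WT at P5 -0.11 and that of the interaction -0.092. Weights estimated gene by gene, added after seeing this, gave -0.074 for the interaction. Without both libraries of highest photoreceptor signal, the P5 median of cKO over WT was -0.080. The direction of this small median (0.06) therefore depends on these settings, and the cause was not tested. With library weights, Mrps21 in WT turned to 0.40, against -0.05 as reported. Trimmed mean scaling gave medians of -0.48 in cKO and -0.54 in WT. It moved the split of all genes called in WT to 2464 higher and 2510 lower, against 2028 and 3143. Library weights raised all calls in WT to 9606, against 5171. For cKO over WT at P5, all calls were 2 to 209 against 33 (10 to 106 with 1 library left out, 2 with only these groups fitted, 18 with the replicate block, 19 with the stricter filter, 59 with library weights, 203 with a photoreceptor term, 209 with weights gene by gene). At E15.5 they were up to 14 against 1, and for the interaction 3 to 50 against 8. No alternative called a ribosomal protein gene by genotype or interaction. Same-numbered libraries of different groups correlated between -0.34 and 0.78 in their deviations, over 0.1 in 7 of 18 pairs. Different-numbered ones correlated between -0.74 and 0.71. These values cannot tell whether replicate numbers pair libraries. With the replicate block, 67 members were lower in cKO and 77 in WT, beside 3499 and 3069 of all genes.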

Other observations

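The ribosomal protein genes had a smaller spread between replicates than the table as a whole at P5 and a larger one at E15.5. Their median SD on the log2 scale was 0.14 in P5 cKO and 0.21 in P5 WT, against 0.23 and 0.32 over all genes tested, and 0.13 in E15.5 cKO and 0.17 in E15.5 WT, against 0.12 and 0.11. These are values without a test. The members' median log2 value spread between libraries of a group by 0.14 (SD). In some libraries most members moved in one direction, as in E15.5 WT replicate 1, where most lay below their group mean. In P5 cKO replicate 1 they went both ways, with Rps3a1 at 0.45 and Rpl36 at -0.42 from their group means. Single genes are therefore not independent looks at the change with age.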
